A study of Drosophila melanogaster with 2 samples.

Results

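The genes for aminoacyl-tRNA synthetases were taken as all protein-coding genes of the Ensembl annotation whose symbol is an amino acid code followed by RS, with or without the suffix -m, plus GluProRS. This gave 33 of 13968 protein-coding genes on the 7 chromosome arms, of which 18 had no suffix and are called cytoplasmic here, and 15 carried -m and are called mitochondrial. The split follows the symbol and not a measured location. The data are ChIP-seq peak lists made with an antibody against GFP from whole Drosophila melanogaster embryos aged 0 to 24 h. The embryos were transgenic and carried CG14014 fused to enhanced GFP, and there was 1 group with 2 biological replicates and no untreated group. Because a whole embryo mixes cell types, binding in few cells and weak binding in many cannot be told apart. Chromatin had been sonicated to fragments of 200 to 800 bp, and coordinates are dm6.

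Aminoacyl-tRNA synthetases join each amino acid to its tRNA and so set the meaning of the codons during translation. Animal cells keep a cytoplasmic set and a mitochondrial set, both encoded in the nucleus, and some genes serve both compartments through alternative starts. Several cytoplasmic enzymes sit together in a multi-synthetase complex in animals. Synthetase genes are housekeeping genes that are needed in all dividing and growing tissues of an embryo. The labels give no function for CG14014.

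A summit is the single base at which a peak was highest, and it was scored at a promoter when it lay within 500 bp of any transcription start site (TSS) of a gene. In the conservative list, which holds 3216 peaks reproducible between the replicates, 8 of the 33 synthetase genes had a promoter summit (24.2%, 95% Wilson interval 12.8 to 41.0), against 14.6% of all protein-coding genes. They were 6 cytoplasmic genes, GluProRS, IleRS, SerRS, ThrRS, AsnRS and MetRS, and 2 mitochondrial ones, ArgRS-m and LeuRS-m. That is 33.3% of the cytoplasmic genes (interval 16.3 to 56.3) and 13.3% of the mitochondrial genes (3.74 to 37.9). The intervals overlap, they cover counting error only, and the difference was not tested, because genes are not replicates. The 8 genes had a median signal of 160, close to the 145 of all 2040 genes with a promoter summit. Signal is the authors' own value per peak on a scale not given in the sources used here.

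GluProRS, a fusion enzyme that charges tRNAs for both glutamate and proline, had the strongest summit, with a signal of 385 at rank 271 of 3216. The peak lay on 3R at 23958424 to 23958657, and its summit was 152 bp upstream of the TSS, between genes. Its signal was 176 in the list of replicate 1 and 210 in that of replicate 2, and the global irreproducible discovery rate (IDR) was 1e-05, the lowest value the rankings hold, in both replicates. A low IDR means that few of the peaks at or above that place in the ranking are estimated not to repeat. IleRS, the isoleucine enzyme, followed with a signal of 269 at rank 515, on 3L at 22288414 to 22288595 and 139 bp upstream of the TSS. It had a signal of 128 in replicate 1 and 135 in replicate 2.

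SerRS, the serine enzyme, was the exception in position. Its summit, with a signal of 268, lay 18 bp downstream of the TSS in the 5' UTR, on 2L at 3037308 to 3037472. The same base lay in an intron of CG17260, a gene on the opposite strand. The signal was 72.4 at rank 1799 of 4617 in replicate 1 and 193 at rank 239 of 2737 in replicate 2, the widest gap among the 8 genes. ThrRS, which charges threonine tRNAs, had a signal of 203 (2L, 12103399 to 12103728, 187 bp upstream), with 96.9 in replicate 1 and 116 in replicate 2. These 4 cytoplasmic genes were the strongest of all members in the conservative list.

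AsnRS, the asparagine enzyme, had a signal of 113 on 2L at 19131863 to 19132192, with the summit 74 bp upstream. Its signal was 60.1 in replicate 1 and 49.8 in replicate 2, but the summits of the replicates lay 59 and 158 bp upstream. MetRS charges the methionine tRNAs, including the initiator, and had the lowest signal of the 8, 87.7 (2R, 18850576 to 18850905, 142 bp upstream). It was in the list of replicate 1 (signal 56.1) and not in that of replicate 2. In the ranking of replicate 2 a summit with a signal of 32.1 had an IDR of 0.0421, above the 0.01 of the thresholded lists. MetRS therefore rested on replicate 1 among the single-replicate lists. In the ranking between the replicates its IDR was 0.00338, below 0.01.

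The 2 mitochondrial genes lay in the lower part of the list and were alike in both replicates. The cytoplasmic genes AsnRS, at rank 1869, and MetRS, at rank 2517, lay there too. ArgRS-m had a signal of 116 at rank 1791 (3R, 7886761 to 7887090), with 46.9 in replicate 1 and 49.0 in replicate 2, and its summits lay between 116 and 119 bp upstream in all of these lists. LeuRS-m had a signal of 89.4 at rank 2471 (3L, 4825578 to 4825907), with 41.0 in replicate 1 and 44.5 in replicate 2, between 105 and 110 bp upstream. These enzymes charge mitochondrial tRNAs for arginine and leucine. In all, 7 of the 8 genes were in each of the 4 thresholded lists, MetRS being the one that was not. These lists draw on the same 2 replicates and so overlap, and the like share over all genes was not counted.

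**Figure D1:**
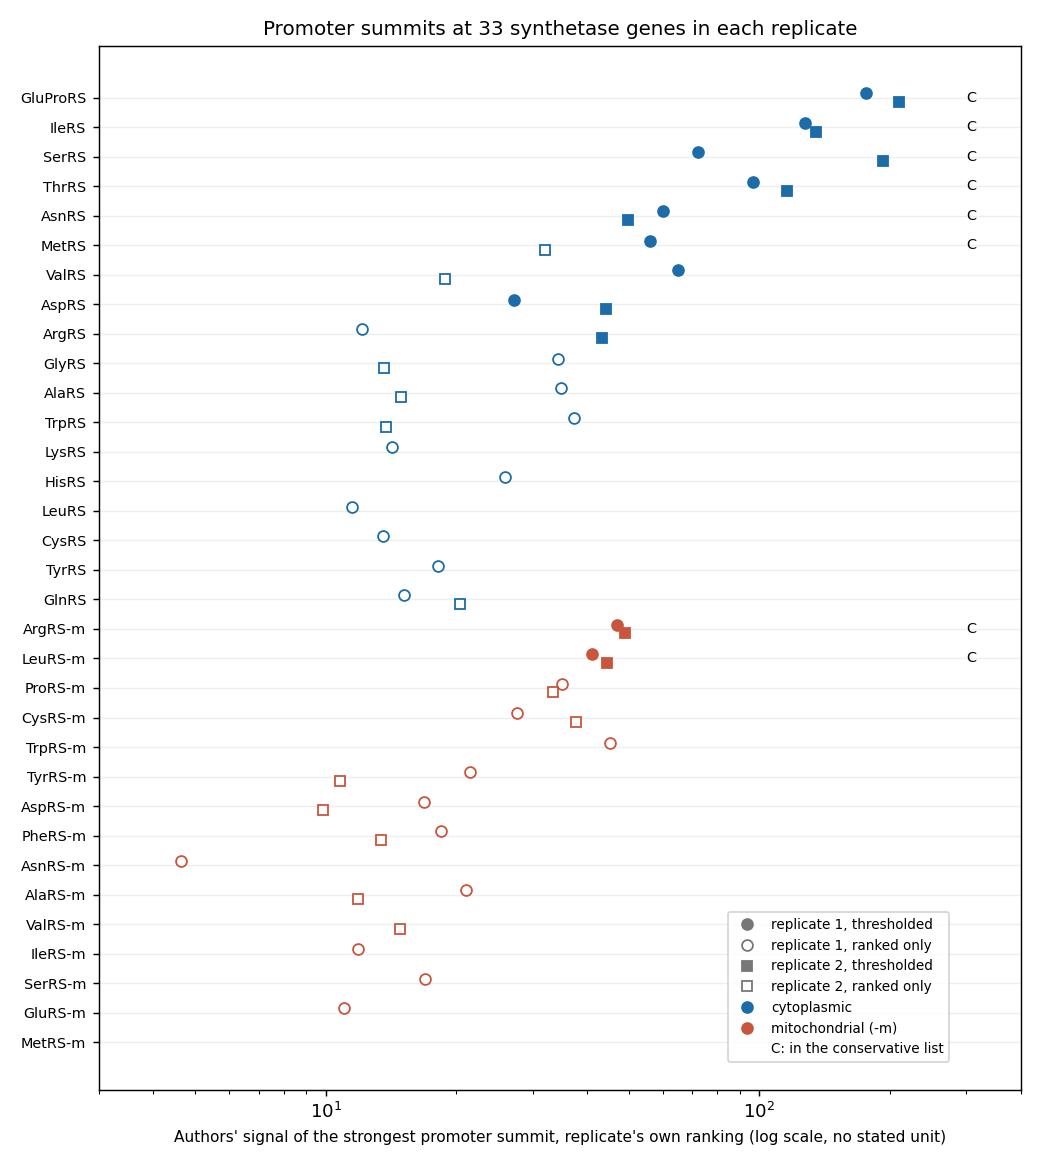
Signal of the strongest promoter summit of each of the 33 genes in the ranking of each replicate, on a log axis with no stated unit. Filled symbols are in the thresholded list of that replicate, open ones only in its ranking, and C marks the 8 genes of the conservative list, led by GluProRS. No symbol is drawn for MetRS-m, which had no promoter summit in either ranking.

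The other 3 thresholded lists gave higher shares, and the background rose with the optimal list and that of replicate 1. The optimal list of 5675 peaks held 12 synthetase genes (36.4%, interval 22.2 to 53.4) against 21.9% of all genes, namely 8 cytoplasmic and 4 mitochondrial ones. Replicate 1 alone gave 10 genes (30.3%) against 18.6%, and replicate 2 alone 9 (27.3%) against 13.2%. Each replicate alone held 2 mitochondrial genes, ArgRS-m and LeuRS-m, beside 8 cytoplasmic genes in replicate 1 and 7 in replicate 2. The share of cytoplasmic genes thus lay between 33.3% and 44.4% over the 4 lists, and that of mitochondrial genes between 13.3% and 26.7%.

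**Figure D2:**
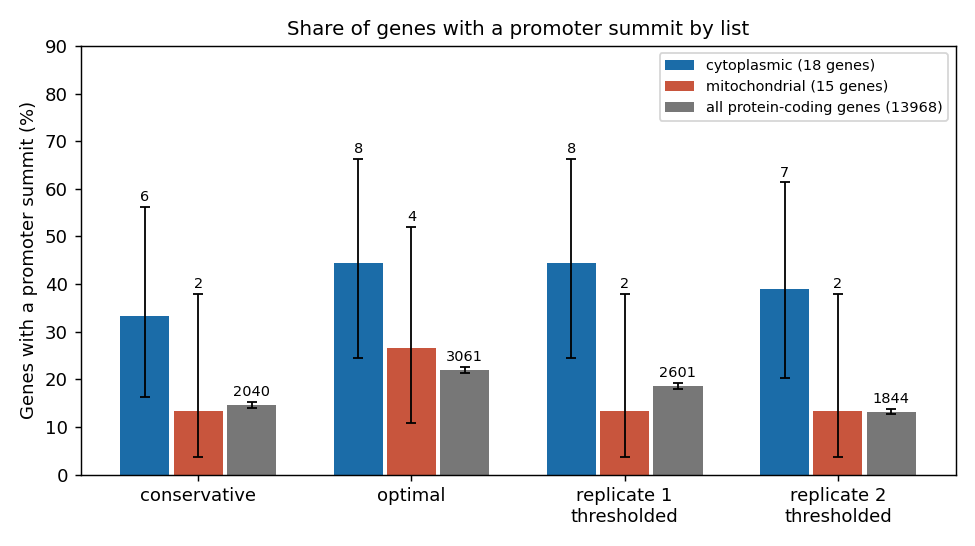
Percentage of cytoplasmic synthetase genes, mitochondrial synthetase genes and all protein-coding genes with a promoter summit in each thresholded list. Bars start at 0, error bars are 95% Wilson intervals for counting error, and the number above each bar is the count of genes. The cytoplasmic bar is the highest in each list, with intervals that overlap those of the mitochondrial genes.

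A further 5 genes had a promoter summit in some thresholded list but not in the conservative one. AspRS, the aspartate enzyme, was in the optimal list (signal 72.5) and in both replicate lists, with 27.2 in replicate 1 and 44.2 in replicate 2. The IDR between the replicates was 0.0231, so it missed the conservative list although each replicate called it alone. ValRS, the valine enzyme, was called in replicate 1 (signal 64.8) and the optimal list (80.3), while its summit in the ranking of replicate 2 had a signal of 18.9. ArgRS showed the opposite order, with a signal of 43.4 in the list of replicate 2 and 12.1 in the ranking of replicate 1, and it was not in the optimal list. The summit was 420 bp upstream of the TSS at ValRS in the optimal list and 108 bp upstream at ArgRS in replicate 2. The AspRS summit lay inside the gene, in an intron of AspRS and of Nmda1, a glutamate receptor subunit on the opposite strand. It was 360 bp upstream of an internal TSS of AspRS in the optimal list and 126 bp from a TSS of Nmda1.

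Both of the others were mitochondrial and appeared in the optimal list alone. ProRS-m, the proline enzyme, had a signal of 69.4 there, and its IDR between the replicates was 0.0106, just above the threshold of 0.01. CysRS-m, the cysteine enzyme, had a signal of 64.1 and an IDR of 0.0228. In the replicate rankings ProRS-m had signals of 35.1 and 33.5, and CysRS-m of 27.6 and 37.7. Among the members in the conservative list, LeuRS-m had the highest IDR between the replicates, 0.00423.

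The remaining 20 genes were in none of the thresholded lists. The full rankings reach down to weak peaks and put a promoter summit at 69.3% of all genes between the replicates and at 79.9% in the pooled reads, so a summit there carries little information. Among the 20, 12 had one in the ranking between the replicates, with signals from 15.4 to 52.8 and an IDR of 0.322 or more. The highest of these was GlyRS, the glycine enzyme (52.8), followed by AlaRS, the alanine enzyme (44.2). The ranking of replicate 1 held 31 of the 33 synthetase genes, against 70.2% of all genes, and that of replicate 2 held 22, against 64.1%. TrpRS, the tryptophan enzyme, came near the threshold in replicate 1, with a signal of 37.3 there and an IDR of 0.0105. MetRS-m, which charges mitochondrial methionine tRNA, was the one member without a promoter summit in any of the 8 lists. The 25 genes without a conservative promoter summit lay between 1075 bp (AlaRS) and 23834 bp (ArgRS) from the nearest conservative summit, with a median of 6592 bp.

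Genes for the same amino acid were compared across the compartments. Of 14 amino acids with both a cytoplasmic and a mitochondrial gene, none had a conservative promoter summit at both. A summit was at the cytoplasmic gene only for 6, at the mitochondrial gene only for 2 (arginine and leucine) and at neither for 6. In that list 33.3% of cytoplasmic, 13.3% of mitochondrial and 14.6% of all protein-coding genes had a summit. At such shares a count of 0 at both carries little information, and a link within pairs was not tested. In the optimal list 1 amino acid was called at both genes (proline, at GluProRS and ProRS-m), and in replicate 2 also 1 (arginine, at ArgRS and ArgRS-m). Glutamate and proline share GluProRS here, so they are not independent. At 5 amino acids (glutamine, glycine, histidine, lysine and threonine) no gene with the suffix -m was found, and of their genes ThrRS alone had a summit. Synthetases fall into 2 structural classes, and 4 of 18 class I genes and 3 of 14 class II genes had a conservative summit, against 14.6% of all protein-coding genes. GluProRS, which joins an enzyme of each class, was left out of these counts. Of 8 enzymes known from the multi-synthetase complex of mammals, 3 had one against the same 14.6%, namely GluProRS, IleRS and MetRS, while LeuRS, GlnRS, LysRS, ArgRS and AspRS did not.

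All 8 conservative summits were shared with a second protein-coding gene. In each case the neighbour started on the opposite strand within 500 bp of the same summit, in a head-to-head arrangement. Among all genes with a conservative promoter summit, 58.2% shared it with another gene. A summit between start sites at most 500 bp apart is shared by definition. With a window of 200 bp, 5 of the 8 shared their summit, against 45.4% of all called genes. GluProRS faced AP-1sigma, a clathrin adaptor subunit, with 260 bp between the start sites, and IleRS faced Hem, a subunit of the SCAR actin regulatory complex, at 470 bp. LeuRS-m faced Dhc64C, the cytoplasmic dynein heavy chain, at 166 bp, and AsnRS faced DCTN6-p27, a dynactin subunit, at 369 bp. ThrRS faced Patsas at 466 bp, and the neighbours of SerRS (8 bp), ArgRS-m (312 bp) and MetRS (245 bp) were CG17260, CG17816 and CG15084. In 7 of the 8 the summit lay between both start sites. At SerRS it lay just outside the nearest start sites of the pair, in an intron of CG17260.

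The lists do not say which gene of a pair a summit belongs to. The start of the synthetase was the nearer one at 5 genes, with SerRS at 18 bp against 26 bp, AsnRS at 74 against 295, ArgRS-m at 119 against 193, IleRS at 139 against 331 and ThrRS at 187 against 279. The neighbour was nearer at 3. The summit was 108 bp from AP-1sigma and 152 bp from GluProRS, 56 bp from Dhc64C and 110 bp from LeuRS-m, and 103 bp from CG15084 and 142 bp from MetRS. With each summit given to the nearest start alone, the count fell to 5 of 33 (15.2%), against 10.7% of all genes.

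**Figure D3:**
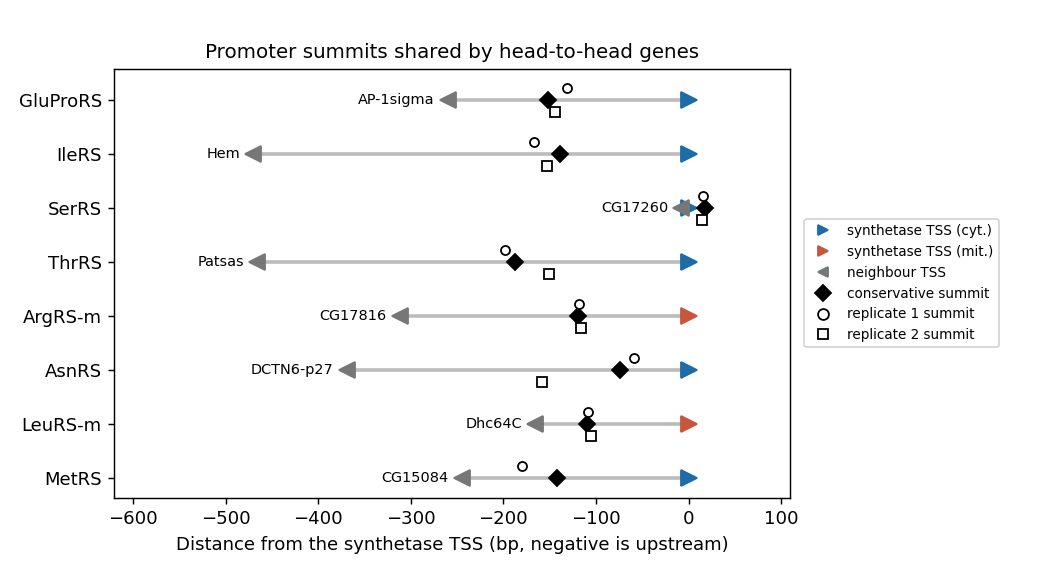
Position of the promoter summits of the 8 genes along the axis from the synthetase TSS (0 bp) to the TSS of the head-to-head neighbour (grey triangle), ordered by signal. Diamonds are conservative summits and open symbols those of each replicate, of which MetRS has 1. The summits lie between the start sites except at SerRS, where they lie 14 to 18 bp downstream.

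Divergent promoters were common among the synthetase genes whether or not they had a summit. A divergent promoter here has the TSS of another protein-coding gene on the opposite strand within 500 bp upstream. Of the 33 genes, 21 had one (63.6%), against 27.3% of all protein-coding genes, and these were 14 of 18 cytoplasmic and 7 of 15 mitochondrial genes. All 8 conservative summits fell on the 21 divergent promoters (38.1%, interval 20.8 to 59.1), against 29.6% of all divergent promoters. The 12 other promoters had none (upper limit 24.2%), against 8.98% of all promoters that were not divergent. Within the divergent promoters, 6 of 14 cytoplasmic genes (42.9%, interval 21.4 to 67.4) and 2 of 7 mitochondrial genes (28.6%, interval 8.22 to 64.1) had a summit. Summits were thus more frequent at divergent than at other promoters, among the synthetase genes and among all genes. A summit near both start sites is scored for both genes, so divergent promoters are scored more often in part by construction. For divergent and for other promoters, the interval of the synthetase genes held the share of all genes. The part of the promoter arrangement in the share of 24.2% was not tested.

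In the optimal list 11 of the 21 divergent promoters had a summit (52.4%), against 40.0% of all divergent promoters. Of the 12 others, ValRS had one, against 15.1% of all promoters that were not divergent. ValRS was outside the definition by a small margin, since Kdm4B started on the opposite strand 513 bp upstream, and the summit lay 93 bp from the TSS of Kdm4B. Each replicate alone gave 9 of 21 (42.9%), against 32.1% of all divergent promoters in replicate 1 and 28.0% in replicate 2. Of the 12 other promoters, replicate 1 called ValRS alone and replicate 2 none, against 13.5% and 7.64% of all promoters that were not divergent. Sharing also held for 12 of 12 called genes in the optimal list, 10 of 10 in replicate 1 and 9 of 9 in replicate 2. Among all called genes, divergent or not, it held for 52.6%, 49.2% and 60.9%. At a divergent promoter, a summit between the start sites is shared by definition. The share among called divergent promoters of all genes was not counted, and the lists repeat many of the same members.

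**Figure D4:**
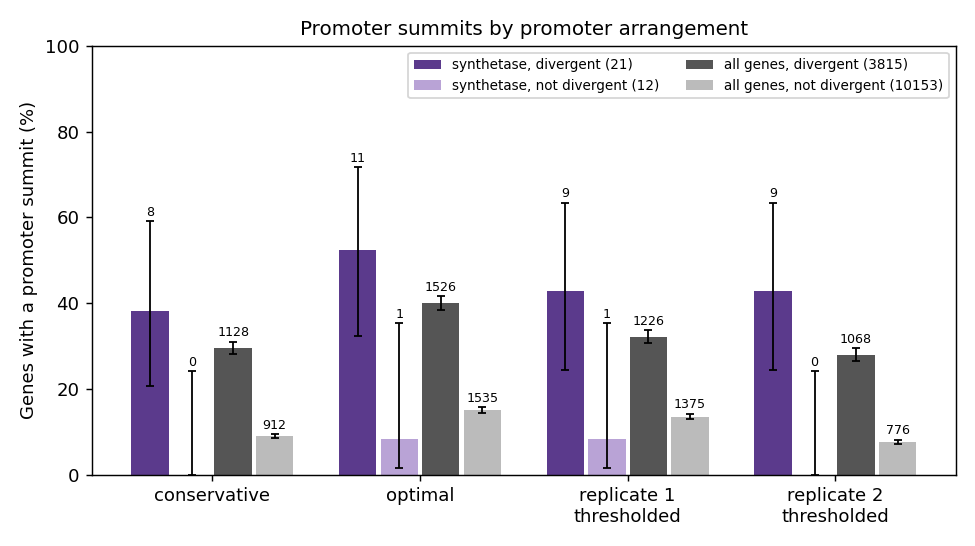
Percentage of synthetase genes and of all protein-coding genes with a promoter summit, split by whether the promoter is divergent, in each thresholded list. Bars start at 0, error bars are 95% Wilson intervals, and numbers are counts of genes. Summits are at 8 of 21 divergent and 0 of 12 other synthetase promoters in the conservative list.

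The sequence at the summits was rich in A and T at most of these genes. Within 50 bp of the summit, GC content was 21.8% at GluProRS and MetRS, 23.8% at ThrRS, 24.8% at IleRS and SerRS, 33.7% at AsnRS, 43.6% at LeuRS-m and 44.6% at ArgRS-m. The 2 mitochondrial genes thus had the highest values of the 8. All 1569 conservative promoter summits had a mean of 34.3% ± 10.3 (SD) and a median of 32.7%. The longest run of A and T alone ranged from 6 bases at LeuRS-m and 8 at ArgRS-m to 14 at SerRS, against a median of 10 over all promoter summits.

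The windows below show this contrast between 4 cytoplasmic summits of lower GC content and both mitochondrial ones. Each runs from 50 bases before to 50 bases after the conservative summit, read 5' to 3' on the strand of the synthetase gene from the release 6 reference sequence of RefSeq, with no annotated exon inside. Capitals mark matches to TATAAA or TTAAAA on either strand. The positions are chr3R:23958493-23958593 (minus strand) for GluProRS, chr3L:22288476-22288576 (plus strand) for IleRS, chr2L:12103514-12103614 (plus strand) for ThrRS, chr2L:19131978-19132078 (minus strand) for AsnRS, chr3R:7886876-7886976 (plus strand) for ArgRS-m and chr3L:4825693-4825793 (plus strand) for LeuRS-m.
GluProRS: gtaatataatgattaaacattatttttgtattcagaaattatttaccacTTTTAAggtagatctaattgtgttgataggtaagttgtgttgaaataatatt
IleRS: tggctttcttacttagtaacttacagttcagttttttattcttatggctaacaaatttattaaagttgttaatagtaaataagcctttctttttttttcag
ThrRS: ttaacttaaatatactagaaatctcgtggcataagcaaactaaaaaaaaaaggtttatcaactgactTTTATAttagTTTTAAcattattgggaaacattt
AsnRS: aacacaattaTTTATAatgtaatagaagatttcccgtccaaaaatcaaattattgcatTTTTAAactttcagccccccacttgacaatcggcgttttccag
ArgRS-m: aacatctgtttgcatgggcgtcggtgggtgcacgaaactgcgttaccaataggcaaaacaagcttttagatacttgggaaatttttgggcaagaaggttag
LeuRS-m: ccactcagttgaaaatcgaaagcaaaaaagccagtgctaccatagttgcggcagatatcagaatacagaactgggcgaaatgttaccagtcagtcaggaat

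Short words were searched on both strands in the windows of the 8 summits. TTAAAA was found at 3 of 8 (AsnRS, GluProRS and ThrRS), against 37.9% of all 1569 promoter summits, and TATAAA at 3 of 8 (AsnRS, SerRS and ThrRS), against 21.5%. TATCGATA, the word bound by Dref, was at 0 of 8 against 3.25%, and TAATTA, a homeodomain word, at 0 of 8 against 10.1%. GGTCACAC (1.34% of all promoter summits), CAGCTG (4.84%), CACGTG (0.892%) and GAGAGAG (1.08%) were at 0 of 8 as well. With 8 windows, a count of 0 says only that these letters are not there.

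Genes that work with the synthetases were looked at as a listed group of 26, of which 23 were found among the protein-coding genes. In the conservative list 6 of the 23 had a promoter summit (26.1%, interval 12.5 to 46.5), against 14.6% of all protein-coding genes. The strongest was eEF1gamma, a subunit of the elongation factor that recycles the tRNA carrier, with a signal of 335, 35 bp upstream of the TSS. GatA, a subunit of the mitochondrial amidotransferase that makes glutaminyl-tRNA, had a signal of 263 and shared the summit with P5cr. The summit lay 93 bp upstream of the GatA TSS, in the 5' UTR of P5cr. P5cr started 74 bp upstream of GatA, so its start was the nearer one. The other subunits, GatB and GatC, had no conservative summit. GatC had one in the optimal list (signal 80.0) and in the list of replicate 2 (56.4), but not in that of replicate 1.

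The cytoplasmic phenylalanine enzyme is built from alpha-PheRS and beta-PheRS, whose symbols fall outside the rule. beta-PheRS had a signal of 145, 52 bp upstream of its TSS, with 79.6 in replicate 1 and 63.7 in replicate 2, and shared the summit with no other gene. alpha-PheRS appeared in the optimal list alone (signal 59.2). eEF1alpha1, which carries charged tRNAs to the ribosome, had a signal of 154, and RNaseZ, which trims the 3' end of tRNA precursors, of 78.0. The sixth gene was crc, the fly ATF4 that responds to amino acid shortage, with a signal of 4.63 at rank 3193 of 3216 and in none of the other thresholded lists. The scaffold proteins of the multi-synthetase complex, AIMP1, AIMP2 and AIMP3, had no promoter summit in the 4 thresholded lists. The shares of all protein-coding genes in those lists ran from 13.2% (replicate 2) to 21.9% (optimal), so 0 of 3 carries little information.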

How the data were processed

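ChIP-seq peak lists from 2 replicates of 1 group were used as deposited. Per the file headers and notes, the authors' lists are on build dm6, with 4 rankings and 4 thresholded lists. Aligner and caller were not given in the sources used here. Peaks carried the signal as the authors deposited it, and the rankings carried the deposited −log10 of the global IDR. The series rankings hold 4 unnamed columns of further signal values, which were not used. No list gives read counts, so depth is unknown.

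Genes and TSSs came from Ensembl release 115, limited to protein-coding genes on 7 arms. No peak or gene ended beyond an arm of the release 6 sequence. Rank is by signal within a list. Counts carry 95% Wilson intervals, and no test was run. All 33 members were accounted for, and those in the conservative list were described one by one. Words were counted within 50 bp of summits and from 250 bp upstream to 50 bp downstream of the outermost TSS. The members, the lists of related genes and the words were chosen with earlier results of these data known, and the class and complex groups after the values were seen. The possible control experiment was not used here. Assignment was tested on simulated data. Python 3.11.15, numpy 2.4.6, scipy 1.17.1 and matplotlib 3.10.9 were used.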

Additional observations from a re-analysis of the deposited data

How the results depend on the processing

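Over 11 other settings the count of synthetase genes with a promoter summit lay between 5 and 12, against 8. It was 5 with the nearest TSS only, where 10.7% of all genes had a summit, and 5 at a global IDR of 0.001 or less, where 9.66% did. It was 12 in the optimal list (21.9% of all genes) and 11 at an IDR of 0.05 or less (19.7%). With windows of 200 and 1000 bp it stayed at 8, while the share of all genes was 10.6% and 17.1%. The cytoplasmic count lay between 4 and 8. The mitochondrial count of 2 was 1 with the nearest TSS only (6.67%) and 0 at an IDR of 0.001 or less. It was 4 in the optimal list and 4 at an IDR of 0.05 or less (26.7% each), against the 21.9% and 19.7% of all genes. The stricter IDR keeps fewer peaks and the nearest TSS fewer genes per peak, by construction. Leaving out a replicate gave 9 to 10 genes, of which 2 were mitochondrial in each. The count of shared summits and all its settings were chosen after seeing the data. It fell from 8 to 5 of 8 with a window of 200 bp, against 45.4% of all called genes. The median summit position was 129 bp upstream with all TSSs and with the outermost TSS. No paired analysis was possible because the labels give only 1 group. Depth, which is unknown, limits which weak summits could be called.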

Other observations

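The word CAGCTG, an E-box, was present in 16 of 33 synthetase promoters (48.5%), counted from 250 bp upstream to 50 bp downstream of the outermost TSS. Of all protein-coding promoters 17.6% held it, of all divergent promoters 25.1%, and of promoters with a conservative summit 24.8%. It was in 9 of 18 cytoplasmic and 7 of 15 mitochondrial promoters, and in 11 of the 21 divergent and 5 of the 12 other ones. Of the 8 genes with a conservative summit 6 held it, at GluProRS, IleRS, SerRS, MetRS, ArgRS-m and LeuRS-m, but not within 50 bp of their summits. At IleRS the word began 79 bp upstream of the outermost TSS, and at GluProRS it began 28 bp downstream. TTAAAA was in 24 of 33 synthetase promoters (72.7%) against 53.4% of all, but in 12 of the 21 divergent ones (57.1%) against 60.6% of all divergent promoters. TATCGATA was in 5 of 33 (15.2%) against 9.36% of all, but in 3 of the 21 divergent ones (14.3%) against 17.4% of all divergent promoters. Of the 12 other synthetase promoters, 12 held TTAAAA (100%) and 2 held TATCGATA (16.7%). The shares of these words over all promoters that were not divergent were not counted. They must lie below the 53.4% and 9.36% of all promoters, because the divergent promoters lay above these values. For both words the synthetase share was thus below the background among divergent promoters and above it among the others. The difference among the others was large for TTAAAA, at 12 of 12, and rested on 2 genes for TATCGATA. These shares are descriptions and were not tested.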
